A study of Mus musculus with 18 samples.

Results

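The early transcriptional response to bone morphogenetic protein 2 (BMP2) was read from 4 of the 18 arrays of the series. These are 2 arrays of cultures exposed to 10 ng/ml recombinant BMP2 for 6 h and 2 arrays of untreated control cultures of the same time, numbered replicate 1 and replicate 2 in each group. The probe sets described are those with a mean signal of at least 100 in at least 1 of the 6 groups of the series, which were 19439 of the 45037 probe sets left after the control probe sets. Of these, 17182 reached a mean of 100 in BMP2 or control cultures of 6 h. The probe set nearest the limit from above had a highest group mean of 100.03 (58.9 in BMP2 and 64.2 in control cultures of 6 h), and the nearest from below had 99.997 (79.4 in BMP2 and 99.997 in control cultures).

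All cultures came from the lateral and medial ganglionic eminences, the ventral forebrain of C57BL/6J mouse embryos at E15.5, which the labels call embryonic striatum. Neurospheres, free-floating clusters of neural precursors, were grown for 7 days in EGF and bFGF. They were dissociated and plated without EGF and with fetal calf serum, and changed after 2.5 days to medium without both factors. The paper's culture scheme starts treatment before this change, so that by this scheme cultures of 6 h were collected with bFGF still present. Its discussion instead names 2.5 days in culture for the treatment. The other groups used below are 2 arrays of trichostatin A (TSA, a histone deacetylase inhibitor, 50 nM) at 6 h, 2 of BMP2 at 24 h, and 6 untreated controls of 24 h. The remaining 4 arrays, of TSA (50 nM) at 24 h, entered the normalization, the filter and the fit over all 18 arrays. The labels do not say whether arrays of a group are separate cultures or what a replicate number shares. The p-values therefore describe the spread between the arrays at hand, and that spread may be technical. In the fit over all 18 arrays it is pooled over all 6 groups, those of 24 h included. The cultures are mixtures of cell types, and fewer cells of a type cannot be told apart from less RNA per cell.

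BMP ligands bind pairs of type I and type II receptor kinases. The type I receptor phosphorylates Smad1, Smad5 and Smad9, which enter the nucleus with Smad4 and switch on target genes, among them the Id genes and inhibitors that damp the same pathway. In precursors of the late embryonic forebrain, BMP signalling is known for promoting astrocyte fate and for opposing the neuronal and oligodendrocyte fates.

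The deposited medians of the 4 arrays lay between 39.23 and 39.75, and 37.1% to 37.4% of the probe sets had a signal of at least 100. The 2 BMP2 arrays correlated at 0.985, the 2 control arrays at 0.984, and BMP2 with control arrays at 0.964 to 0.978 over the tested probe sets. Summed signals of 5 neural stem cell markers were 17629 and 17359 in BMP2 cultures and 17471 and 17850 in control cultures. Those of 6 ganglionic eminence markers were 3116 and 1936 in BMP2 cultures and 3719 and 2832 in control cultures, lower in BMP2 within both replicate numbers. No marker of microglia, endothelium, erythroid cells, or choroid plexus and ependyma reached a mean of 100 in a 6 h group, and 1 of the 4 markers of mural cells and fibroblasts did.

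BMP2 changed 286 of the 19439 probe sets within 6 h. A change was called at a Benjamini-Hochberg adjusted p under 0.05 in a limma fit of log2(signal + 32) over all 18 arrays, which is 1.47% of the probe sets (0.977% higher and 0.494% lower in BMP2). An unadjusted p under 0.05 was reached by 1217 probe sets. With each gene read from its brightest probe set, 122 of 10588 genes rose (1.15%) and 68 fell (0.642%). The median change was 1.39 among the genes that rose and -1.21 among those that fell, on the log2(signal + 32) scale, which understates the change of dim genes. Over all genes tested the median was -0.01. Among all genes tested 21.9% had both BMP2 arrays above both controls and 22.9% had both below.

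The log2 difference between BMP2 and control within replicate 1 and within replicate 2 correlated at 0.813 over the tested probe sets, and 70.7% of them had the same sign in both. Of the 286 called, which were chosen on these same arrays, 200 changed by more than 1 log2 unit in both. The spread between the arrays of a group was small at 6 h, with a median SD of 0.085 in BMP2 and 0.090 in control cultures. It was 0.242 in the 24 h controls and 0.231 in the TSA cultures of 24 h, which share the estimate of the spread. The p-values of the 18-array fit at 6 h therefore rest in part on the wider spread of these 24 h groups. When the 6 arrays of 6 h were fitted alone in limma with replicate number as a blocking factor (the paired fit below), 1720 genes were called (16.2%). Of these 809 were higher (7.64%) and 911 lower (8.6%) in BMP2, and all 190 were among them. Because the labels do not say what a number shares, this fit is given beside the fit over all 18 arrays and does not replace it. With 1 of the 4 arrays left out the 18-array fit called 57 to 95 genes, and 22 of the 51 named genes that were called stayed called each time.

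**Figure D1:**
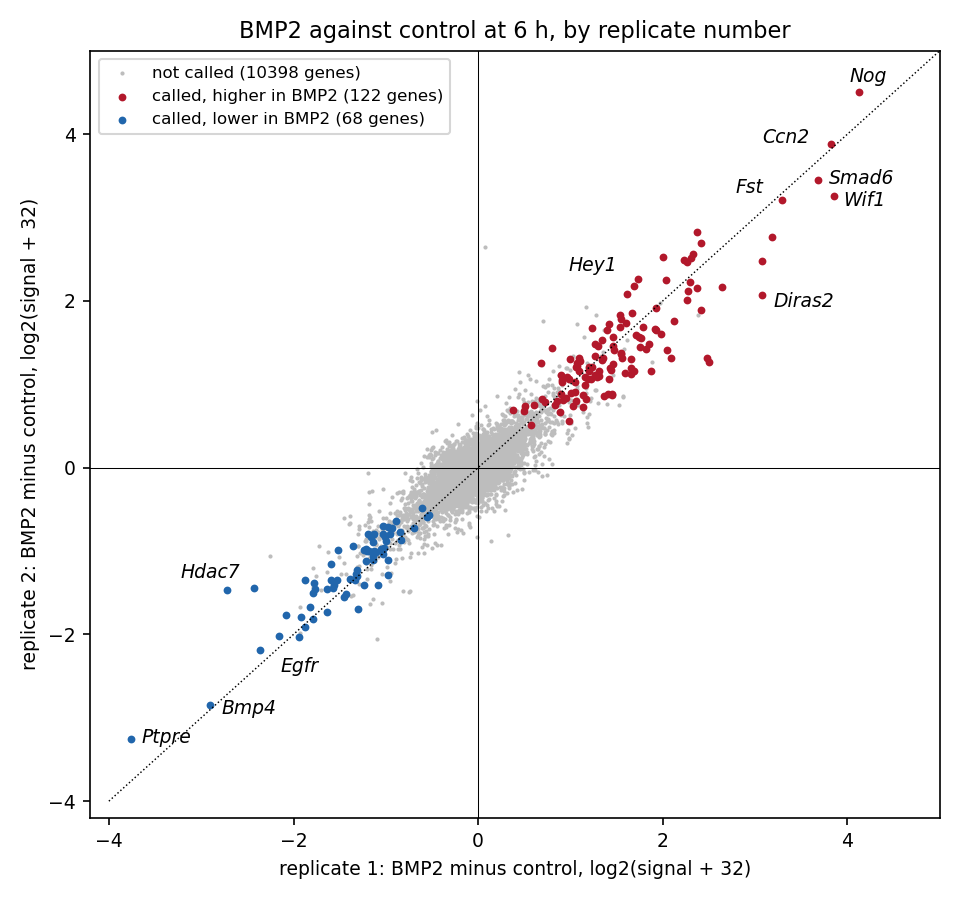
Log2 difference between BMP2 and control cultures at 6 h in replicate 1 (horizontal axis) and replicate 2 (vertical axis), on the log2(signal + 32) scale, for the 10588 genes tested. Each point is a gene, red for the 122 that rose, blue for the 68 that fell and grey for the others, and the dotted line marks equal differences. Nog lies at 4.12 and 4.50 and Ptpre at -3.76 and -3.26.

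Secreted and intracellular inhibitors of the BMP pathway were among the strongest rises. Of the 17 tested antagonists and feedback inhibitors, 5 rose and none fell, 29.4% against 1.79% of all genes tested, and 12 had both BMP2 arrays above both controls (21.9% of all genes). The median change of the list was 0.67. Smoc1, a protein described in Xenopus as a BMP antagonist, was not on the list and fell by -1.61 (given below). The 12 called by the paired fit were all higher in BMP2, beside 7.64% higher among all genes.

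Nog, which encodes noggin, a secreted protein that binds BMP ligands, had signals of 3142 and 2888 in BMP2 cultures, against 150.3 and 97.0 in control cultures. The groups were far apart, with a log2 change of 4.31 (SE 0.18, adjusted p = 1.8e-09), the largest of any gene. Smad6, an inhibitory Smad that blocks receptor and Smad complexes, had 696 and 534 in BMP2 cultures, against 24.8 and 19.8 in control cultures, a change of 3.56 (SE 0.31, adjusted p = 2.2e-05). Fst, the secreted activin and BMP antagonist follistatin, had 624 and 622 in BMP2 cultures, against 35.1 and 38.4 in control cultures, a change of 3.25 (SE 0.36, adjusted p = 0.00012). Without treatment both Smad6 and Fst lay below 100 on both arrays, and with BMP2 both lay above 500.

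Pmepa1, a membrane protein that binds Smads of the TGF-beta branch, and Ski, a nuclear corepressor of Smads, rose too, from control signals above 300. Pmepa1 had 1061 and 879 in BMP2 cultures, against 315 and 385 in control cultures, a change of 1.39 (SE 0.24, adjusted p = 0.0052). Ski had 2082 and 2242 in BMP2 cultures, against 1361 and 1315 in control cultures, a change of 0.68 (SE 0.12, adjusted p = 0.0062). Neither overlapped between the groups, but leaving out 1 array gave adjusted p of 0.053 to 0.11 for Ski, and Pmepa1 lost its call without BMP2 replicate 1 or control replicate 1 (0.1 at most).

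Further inhibitors had both BMP2 arrays above both controls without passing the test in the 18-array fit. The brightest probe set of Smad7, the other inhibitory Smad, had 1593 and 1689.6 in BMP2 cultures, against 279.8 and 452 in control cultures, a change of 2.11 (SE 0.56, adjusted p = 0.091, paired fit 0.00018). A second probe set of Smad7 had 1349 and 1394 in BMP2 cultures, against 208 and 347 in control cultures, and was called (2.22, adjusted p = 8.5e-05). Bambi, a receptor-like protein without a kinase domain, had 198 and 154 in BMP2 cultures, against 52.7 and 47.8 in control cultures, a change of 1.33 (SE 0.32, adjusted p = 0.053, paired fit 0.00045). Skil, a relative of Ski, had 3136 and 2803 in BMP2 cultures, against 1575 and 1609 in control cultures, a change of 0.88 (SE 0.21, adjusted p = 0.053, paired fit 0.00019).

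**Figure D2:**
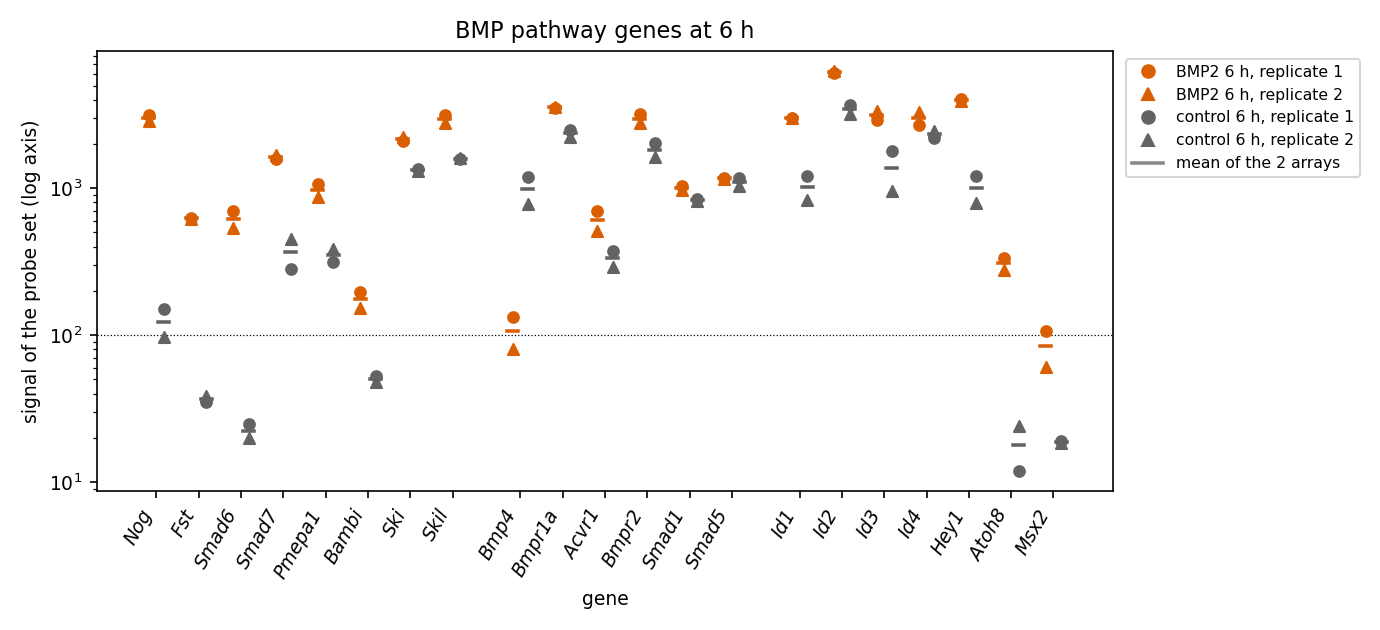
Signals of BMP pathway genes on each array at 6 h (log axis), with BMP2 cultures left of control cultures for each gene. Circles are replicate 1, triangles replicate 2, horizontal bars the mean of the 2 arrays, and the dotted line a signal of 100. Inhibitors stand on the left, ligand, receptors and signalling Smads in the middle, and Id genes and other transcription factors on the right, and Bmp4 is the gene with lower BMP2 than control signals.

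Among 15 tested ligands, receptors and signalling Smads, the type I receptor genes Bmpr1a and Acvr1 rose and the ligand gene Bmp4 fell, beside 1.15% higher and 0.642% lower among all genes, with a list median of 0.08. Bmp4, the ligand most closely related to Bmp2, had 133 and 81.0 in BMP2 cultures, against 1201 and 783 in control cultures, a change of -2.88 (SE 0.51, adjusted p = 0.0062). It lost its call without BMP2 replicate 2 or control replicate 1, with adjusted p up to 0.11. Bmp2 itself stayed dim, with 23.2 and 20.3 in BMP2 cultures, against 21.4 and 17.8 in control cultures, and was not tested. Of the 8 tested genes that the study followed by RT-PCR, a list chosen on such samples and therefore no independent evidence, Bmp4 was the only one called.

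Bmpr1a, the type I receptor also known as ALK3, had 3545 and 3598 in BMP2 cultures, against 2495 and 2237 in control cultures, a change of 0.59 (SE 0.13, adjusted p = 0.038). Of its 5 tested probe sets 4 were called, with changes of 0.59 to 1.17, although leaving out 1 array gave the brightest adjusted p of 0.12 to 0.42. A second probe set of Acvr1, the type I receptor ALK2, changed by 0.48 and was not called (adjusted p = 0.70). The brightest probe set of Acvr1 had 697 and 512 in BMP2 cultures, against 376 and 292 in control cultures, a change of 0.79 (SE 0.18, adjusted p = 0.041). It stayed called only without BMP2 replicate 2, with adjusted p of 0.045 to 0.72 over the 4 omissions, and was not called with the deposited values (0.060) or in a fit of the 6 h arrays alone (0.075).

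The type II receptor Bmpr2 had 3192 and 2766 in BMP2 cultures, against 2033 and 1629 in control cultures, a change of 0.70 (SE 0.22, adjusted p = 0.24, paired fit 0.00029). The signalling Smads differed less. Smad1 had 1043 and 979 in BMP2 cultures, against 838 and 825 in control cultures, with a change of 0.27, and Smad5 had 1177 and 1153 in BMP2 cultures, against 1169 and 1029 in control cultures, with a change of 0.08 and overlapping arrays (adjusted p = 1 for both). The second type I receptor, Bmpr1b, also overlapped, with 987 and 869 in BMP2 cultures, against 928 and 704 in control cultures and a change of 0.19.

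The Id genes encode helix-loop-helix proteins that sequester bHLH factors and hold back differentiation. They and other transcription factors that respond to BMP had the highest median of any list, 0.99, with 4 of 13 tested genes called, all higher (1.15% of all genes), and 10 with both BMP2 arrays above both controls (21.9% of all genes). Id1 had 2989 and 3026 in BMP2 cultures, against 1213 and 826 in control cultures, a change of 1.56 (SE 0.45, adjusted p = 0.13, paired fit 0.0025). Id2 had 6102 and 6307 in BMP2 cultures, against 3673 and 3214 in control cultures, a change of 0.85 (SE 0.28, adjusted p = 0.28, paired fit 0.0066). Id3 had 2926 and 3334 in BMP2 cultures, against 1792 and 960.3 in control cultures, a change of 1.23 (SE 0.50, adjusted p = 0.53, paired fit 0.044). In all 3 both BMP2 arrays lay above both controls, and none passed the 18-array fit whereas all passed the paired fit.

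Id4 had 2716 and 3285 in BMP2 cultures, against 2214 and 2465 in control cultures, with a change of 0.35 (adjusted p = 1, paired fit 0.014). The called members were Hey1, Atoh8, Msx2 and Klf4. Hey1, a bHLH repressor used by both the Notch and the BMP pathway, had 4065 and 3945 in BMP2 cultures, against 1205 and 796 in control cultures, a change of 2.00 (SE 0.25, adjusted p = 0.00047), and Atoh8, a bHLH factor, had 336 and 279 in BMP2 cultures, against 11.8 and 23.9 in control cultures, a change of 2.77 (SE 0.24, adjusted p = 2.2e-05). Both stayed called without any 1 of the 4 arrays. The homeobox gene Msx2 had 107 and 60.6 in BMP2 cultures, against 19.0 and 18.5 in control cultures, a change of 1.16 (SE 0.20, adjusted p = 0.0042) that stayed called only without BMP2 replicate 2 (up to 0.14 otherwise). Klf4, a zinc finger factor of the Krüppel-like family, had 79.0 and 75.3 in BMP2 cultures, against 15.1 and 14.5 in control cultures, a change of 1.22 (SE 0.27, adjusted p = 0.031), and adjusted p of 0.19 to 0.27 without 1 array.

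A Wnt inhibitor and 2 Wnt receptors rose. Of 27 tested Wnt pathway genes 3 rose and none fell, beside 1.15% and 0.642% of all genes, while the median was -0.02. Wif1, a secreted inhibitor that binds Wnt ligands, was dim in control cultures, with 509 and 301 in BMP2 cultures, against 5.37 and 2.77 in control cultures, a change of 3.56 (SE 0.26, adjusted p = 3.3e-06). Fzd1 and Fzd7 encode Wnt receptors. Fzd1 had 1113 and 915 in BMP2 cultures, against 445 and 343 in control cultures, a change of 1.30 (SE 0.19, adjusted p = 0.0014), and Fzd7 had 327 and 245 in BMP2 cultures, against 131 and 135 in control cultures, a change of 0.93 (SE 0.21, adjusted p = 0.031) with adjusted p of 0.057 to 0.51 when 1 array was left out. Wnt5a, a ligand the study followed by RT-PCR, did not separate, with 233 and 318 in BMP2 cultures, against 239 and 372 in control cultures. Ccn4 (Wisp1), another gene followed there, stayed below 100 and was not tested.

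Promoters of 4 of these genes are shown because their levels separated the groups and each has a single start site in the RefSeq promoter table (build GRCm38.p6). Each line gives the 250 bases before the start, 5′ to 3′ on the gene's strand, with matches to GGCGCC, or to GGAGCC on either strand (read as GGCTCC on the opposite one), in capitals. These letters are described for binding of the BMP-activated Smads. Smad6 is chr9:64022060-64022309 (minus strand), Ski chr4:155222536-155222785 (minus strand), Wif1 chr10:121033754-121034003 (plus strand) and Bmp4 chr14:46390670-46390919 (minus strand).
Smad6: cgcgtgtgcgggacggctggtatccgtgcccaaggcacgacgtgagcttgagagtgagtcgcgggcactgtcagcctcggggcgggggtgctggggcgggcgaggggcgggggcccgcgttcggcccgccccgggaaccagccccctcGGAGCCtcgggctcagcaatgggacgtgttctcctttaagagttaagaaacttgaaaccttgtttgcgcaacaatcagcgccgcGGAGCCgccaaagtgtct
Ski: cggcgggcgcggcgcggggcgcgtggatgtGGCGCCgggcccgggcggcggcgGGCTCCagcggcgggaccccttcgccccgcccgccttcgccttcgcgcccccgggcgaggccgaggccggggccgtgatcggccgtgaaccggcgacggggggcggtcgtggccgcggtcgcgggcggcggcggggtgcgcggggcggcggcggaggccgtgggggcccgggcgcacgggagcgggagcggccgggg
Wif1: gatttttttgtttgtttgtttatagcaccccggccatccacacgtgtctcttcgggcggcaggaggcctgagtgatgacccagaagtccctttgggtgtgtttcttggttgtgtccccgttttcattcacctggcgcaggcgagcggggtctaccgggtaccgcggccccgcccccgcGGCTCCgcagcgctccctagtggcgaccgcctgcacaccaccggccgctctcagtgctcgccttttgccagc
Bmp4: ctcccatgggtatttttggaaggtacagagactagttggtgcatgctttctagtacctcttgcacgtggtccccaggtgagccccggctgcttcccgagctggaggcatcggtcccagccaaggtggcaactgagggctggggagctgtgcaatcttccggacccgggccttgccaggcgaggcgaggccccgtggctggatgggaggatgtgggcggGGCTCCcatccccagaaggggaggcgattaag

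Smad6 holds 2 matches of GGAGCC, starting 102 and 18 bases before the start, Ski holds 1 GGCGCC and 1 GGCTCC, and Wif1 and Bmp4 hold 1 GGCTCC each. Promoters matched by symbol for 97 of the 122 genes that rose, 55 of the 68 that fell and 8653 of all tested. GGCGCC was present in 33% of the promoters of genes that rose, in 16.4% of those that fell, in 21.1% of all tested genes and in 10.8% of all 27025 genes of the table. GGAGCC on either strand was present in 61.9%, 36.4%, 41.4% and 28.6% of the same 4 sets. CAGAC or its reverse complement GTCTG was present in 45.4%, 36.4%, 45.1% and 45.8%. The sets differ in base composition, with a median GC content of 65.2% in promoters of genes that rose, 64% in those that fell, 60.7% in all tested and 52.4% in the whole table. A gene with several start sites counted where any of them had a match, and a match is a description of these letters and not a binding site.

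The remaining strong rises covered matrix, cell cycle, cytoskeletal and signalling genes. Ccn2, the matrix-associated connective tissue growth factor that also answers to TGF-beta, had 590.2 and 933 in BMP2 cultures, against 12 and 33.7 in control cultures, a change of 3.85 (SE 0.82, adjusted p = 0.025). Its large standard error came with an adjusted p of 0.12 to 0.26 when 1 array was left out, and its paired fit gave 0.00012. Cdkn1c, the imprinted cyclin-dependent kinase inhibitor p57, had 2115 and 1401 in BMP2 cultures, against 205 and 179 in control cultures, a change of 2.97 (SE 0.40, adjusted p = 0.00082). It was the only called gene of the 7 tested kinase inhibitors, beside 1.79% of all genes, and the list median was 0.36.

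Papss2, which makes the sulphate donor used for proteoglycans, had 1503 and 2587 in BMP2 cultures, against 266 and 338 in control cultures, a change of 2.60 (SE 0.41, adjusted p = 0.002), lost without BMP2 replicate 2 (0.051). Diras2, a Ras-like GTPase, had 567 and 203 in BMP2 cultures, against 39.1 and 24.0 in control cultures, a change of 2.57 (SE 0.38, adjusted p = 0.0015), with both BMP2 arrays far above the controls. Kif26b, a kinesin family member, had 330.1 and 357 in BMP2 cultures, against 36.1 and 27.8 in control cultures, a change of 2.56 (SE 0.25, adjusted p = 5e-05). None of these genes overlapped between the groups.

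The other genes of the 15 largest rises were Ier5l, Zbtb7c, Mylip, Tmem158 and Cdh22. Their changes were 2.45, 2.41, 2.40, 2.36 and 2.36, with adjusted p of 0.0034 at most. Mylip, an E3 ubiquitin ligase that lowers the LDL receptor, had 619.6 and 333 in BMP2 cultures, against 72.6 and 49.1 in control cultures. Cdh22, a cadherin, had 747 and 616 in BMP2 cultures, against 134 and 83.4 in control cultures, and was lost without BMP2 replicate 1 or control replicate 2 (0.079 at most). The other 4 stayed called without any 1 array.

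Further lists had 1 or 2 members that rose, beside 1.15% of all genes tested. Gadd45b, a growth arrest and stress gene, had 281 and 271 in BMP2 cultures, against 26.7 and 49.9 in control cultures, a change of 2.15 (SE 0.33, adjusted p = 0.0019), 1 of 22 tested stress and heat shock genes. Among 25 matrix and adhesion genes Papss2 rose with Timp3, an inhibitor of metalloproteinases, which had 2742 and 2833 in BMP2 cultures, against 1269 and 1249 in control cultures, a change of 1.13 (SE 0.23, adjusted p = 0.016). Cadps, which primes dense-core vesicles for release, had 1321 and 1092 in BMP2 cultures, against 432 and 399.9 in control cultures, a change of 1.46 (SE 0.27, adjusted p = 0.0071). Cadps lost its call when BMP2 replicate 1 or either control was left out (0.14 at most), and Timp3 when any 1 array was (0.13 to 0.15).

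Of 30 tested axon guidance genes 3 rose (1.15% of all genes), all receptors or membrane ligands of growth cones, and the list median was 0.005. Nrp1, the semaphorin and VEGF coreceptor neuropilin 1, had 1060.0 and 1149 in BMP2 cultures, against 422 and 389 in control cultures, a change of 1.38 (SE 0.26, adjusted p = 0.01). Unc5c, a netrin receptor, had 299 and 280.4 in BMP2 cultures, against 102 and 113 in control cultures, a change of 1.21 (SE 0.27, adjusted p = 0.037). Efna5, an ephrin ligand, had 287 and 236 in BMP2 cultures, against 140.1 and 91.5 in control cultures, a change of 1.00 (SE 0.23, adjusted p = 0.044). All 3 lost the call when any 1 array was left out, with adjusted p of 0.079 to 0.13, 0.2 to 0.33 and 0.063 to 0.6.

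**Figure D3:**
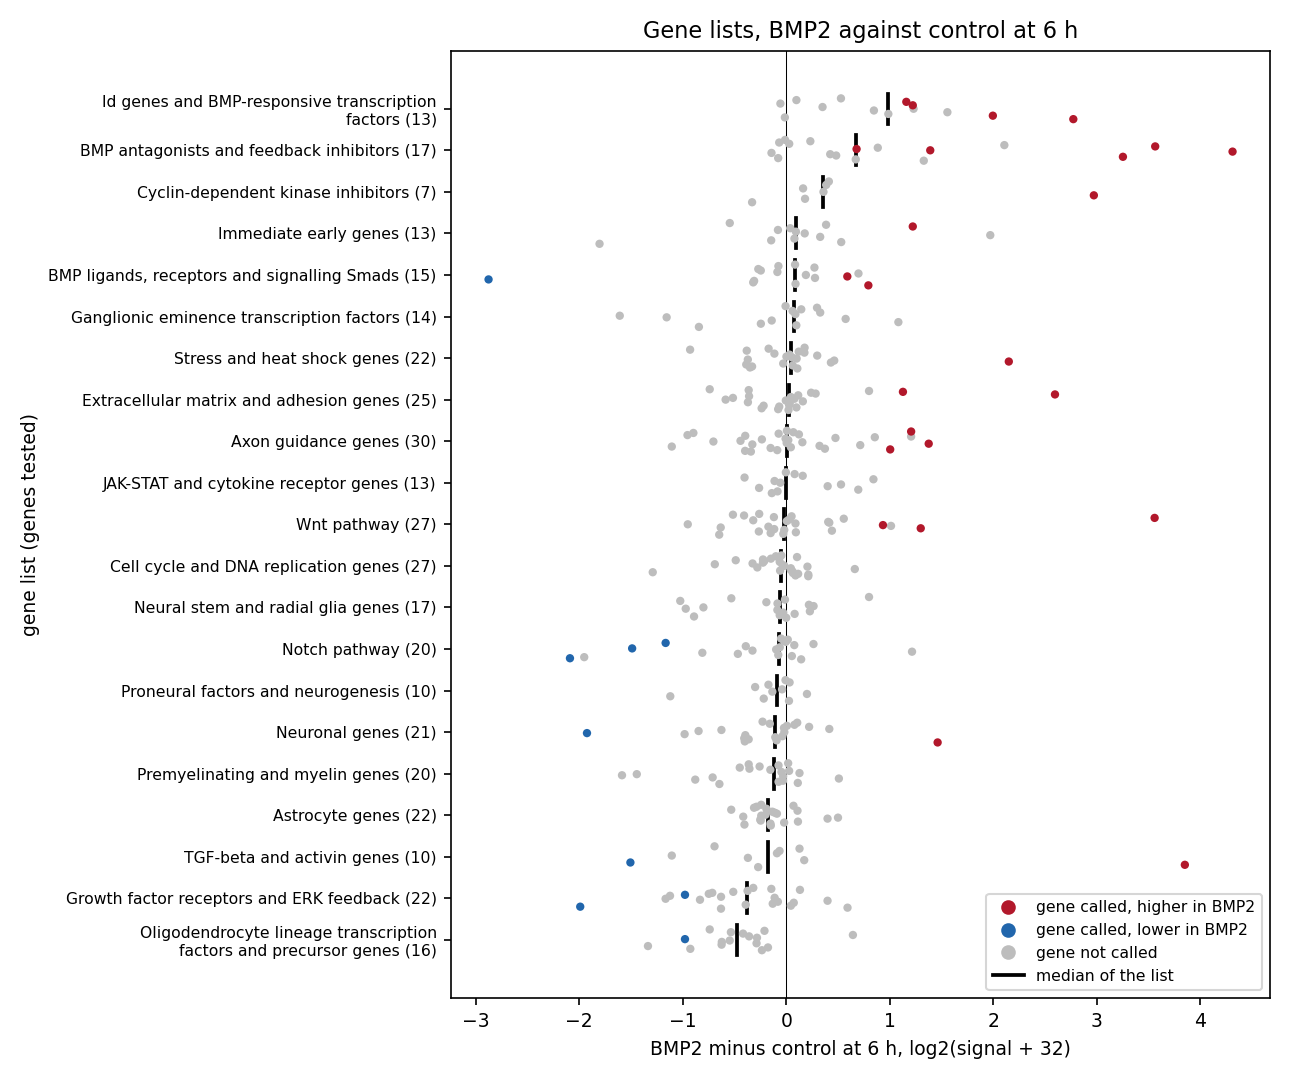
Log2 change between BMP2 and control cultures at 6 h, on the log2(signal + 32) scale, for the genes of each list with at least 7 tested genes. Each point is a gene, red where it was called higher in BMP2, blue where called lower and grey where not called, and the black bars are list medians, from 0.99 for Id genes and BMP-responsive factors to -0.48 for oligodendrocyte lineage factors and precursor genes. Points are spread vertically for visibility.

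Of the Notch pathway the ligand gene Dll1 and the modifiers Mfng and Nrarp fell. Notch receptors are switched on by Delta and Jagged ligands on neighbouring cells, and glycosyltransferases of the Fringe family set which ligand they answer to. Of 20 tested genes 3 fell, 15% of the list beside 0.642% of all genes tested, and 17 were not called. Hey1, which the Notch pathway also uses, was counted with the BMP-responsive factors and not here, and it rose. The list median was -0.07, and 8 genes had both BMP2 arrays below both controls (22.9% of all genes).

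Dll1, a Delta ligand, had 215 and 242 in BMP2 cultures, against 1069.6 and 1081 in control cultures, a change of -2.09 (SE 0.40, adjusted p = 0.011). Mfng, the Fringe enzyme manic fringe, had 49.7 and 43.9 in BMP2 cultures, against 209.7 and 170.3 in control cultures, a change of -1.49 (SE 0.29, adjusted p = 0.012). Nrarp, a target and feedback regulator of Notch, had 739.7 and 728 in BMP2 cultures, against 1762 and 1614 in control cultures, a change of -1.17 (SE 0.27, adjusted p = 0.041). The groups were well apart in all 3, but each lost its call when any 1 array was left out, with adjusted p of 0.082 to 0.14, 0.073 to 0.18 and 0.21 to 0.33.

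Dll3, a Delta-like protein of the secretory pathway, had 261 and 233 in BMP2 cultures, against 1081 and 1010.3 in control cultures, a change of -1.95 (SE 0.48, adjusted p = 0.058, paired fit 0.00056). The Notch target genes Hes5 and Hes1 did not pass, whereas Nrarp fell and Hey1 rose. Hes5 had 2017 and 1688 in BMP2 cultures, against 3024 and 2175 in control cultures, a change of -0.47 (SE 0.49, adjusted p = 1, paired fit 0.063), and Hes1 had 131 and 90.7 in BMP2 cultures, against 137 and 100.0 in control cultures, with overlapping arrays. A second probe set of Hes5 changed by -0.57 and was called lower by the paired fit only (0.019).

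Of 22 tested growth factor receptors and ERK feedback genes 2 fell, Egfr and Pdgfra, where 0.642% of all genes did, and none rose. The list median was -0.38, and 9 genes had both BMP2 arrays below both controls, which 22.9% of all genes had. Egfr, the receptor of the EGF in which the neurospheres had been grown, had 309 and 261 in BMP2 cultures, against 1283 and 1169 in control cultures, a change of -1.99 (SE 0.34, adjusted p = 0.0041). It lost its call without BMP2 replicate 2 or control replicate 1, with adjusted p of 0.063 at most. Of its 4 tested probe sets 2 were called, and the others changed by -0.98 and -0.27. Pdgfra, the PDGF receptor of oligodendrocyte precursors, is described with that lineage.

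Ptpre, a receptor-type tyrosine phosphatase, showed the deepest fall. Its signals were 36.8 and 49.8 in BMP2 cultures, against 903 and 750.4 in control cultures, a change of -3.51 (SE 0.32, adjusted p = 2.8e-05), and a second probe set was called too (-2.61). Asic1, an acid-sensing sodium channel, had 81.7 and 93.4 in BMP2 cultures, against 553 and 541 in control cultures, a change of -2.28 (SE 0.35, adjusted p = 0.002). Hdac7, a class IIa histone deacetylase, had 35.3 and 97.6 in BMP2 cultures, against 412 and 327 in control cultures, a change of -2.10 (SE 0.34, adjusted p = 0.0029), lost without BMP2 replicate 1 or control replicate 1 (0.086 at most). Ncald, the calcium sensor neurocalcin delta, had 558 and 745 in BMP2 cultures, against 2459 and 2621 in control cultures, a change of -1.93 (SE 0.18, adjusted p = 2.8e-05). A second probe set of Ncald changed by -1.07 and was not called (adjusted p = 0.29). Ptpre, Asic1 and Ncald stayed called without any 1 array.

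The other genes of the 15 largest falls were Nfe2l3, Tmem51, Myorg, Zfp365, Plekhf1, G0s2, Sh3bp4 and Smoc1, with changes of -1.93, -1.89, -1.86, -1.80, -1.75, -1.68, -1.65 and -1.61. Nfe2l3, a bZIP transcription factor, had 29.2 and 106 in BMP2 cultures, against 297 and 343 in control cultures, with BMP2 arrays far apart and an adjusted p of 0.043 that reached 0.74 without BMP2 replicate 1. Smoc1, a secreted matricellular protein described in Xenopus as a BMP antagonist, had 265 and 392 in BMP2 cultures, against 1064 and 1046 in control cultures, a change of -1.61 (SE 0.35, adjusted p = 0.029). G0s2, an inhibitor of adipose triglyceride lipase, had 105 and 91.6 in BMP2 cultures, against 393 and 379 in control cultures, a change of -1.68 (SE 0.29, adjusted p = 0.0052). A second probe set of Zfp365 changed by -0.63 and was not called. Tmem51 and Sh3bp4 stayed called without any 1 array, Zfp365 was lost only without control replicate 1 (0.052), and Myorg, Plekhf1, G0s2 and Smoc1 were lost without each, with adjusted p of 0.086 to 0.13, 0.13 to 0.26, 0.053 to 0.074 and 0.074 to 0.42.

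In the TGF-beta and activin list 1 of 10 tested genes fell beside the rise of Ccn2, where 0.642% of all genes fell and 1.15% rose. The paired fit called 5 of the list lower and 1 higher, beside 8.6% and 7.64% of all genes. Inhbb, the activin beta B subunit, had 165 and 221 in BMP2 cultures, against 509 and 713 in control cultures, a change of -1.51 (SE 0.22, adjusted p = 0.0014) that held without any 1 array. A second probe set of Inhbb changed by -0.37 and was not called.

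**Figure D4:**
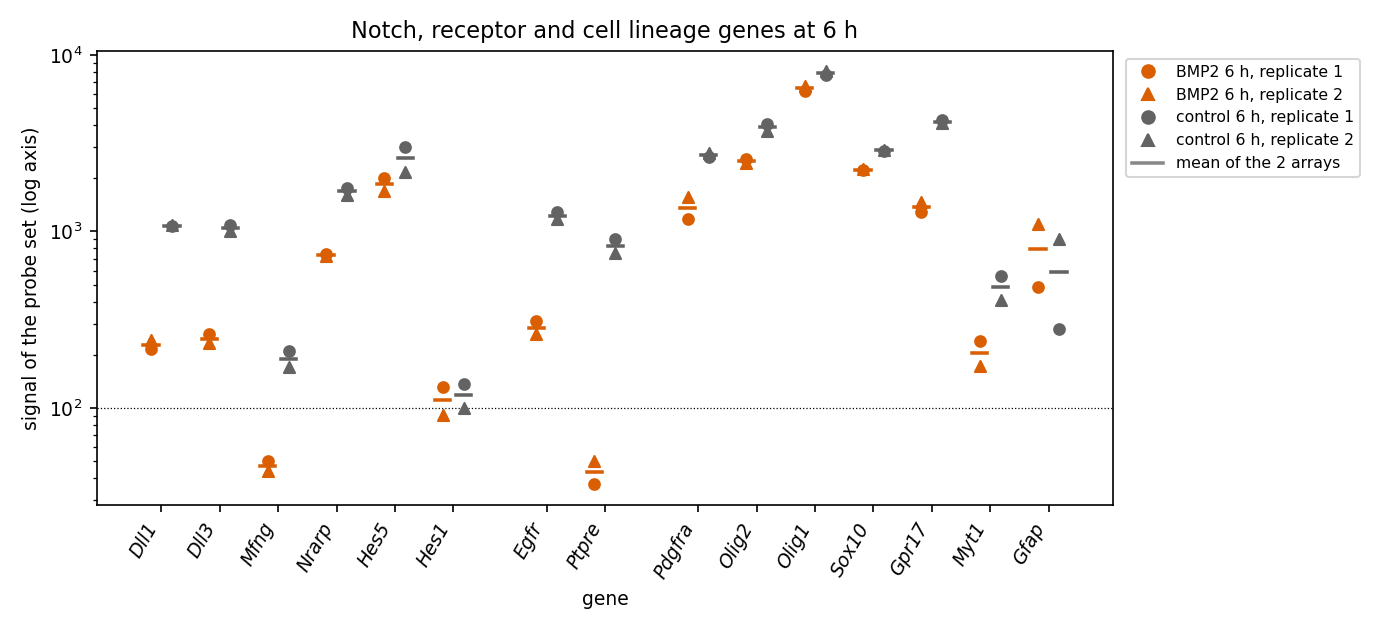
Signals of Notch pathway, receptor and lineage genes on each array at 6 h (log axis), with BMP2 cultures left of control cultures for each gene. Circles are replicate 1, triangles replicate 2, horizontal bars the mean of the 2 arrays, and the dotted line a signal of 100. The BMP2 arrays lie below both control arrays in all genes shown except Hes1 and Gfap.

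Oligodendrocyte lineage genes were mostly lower in BMP2 cultures, and 1 passed the test. Of 16 tested lineage transcription factors and precursor genes 14 had both BMP2 arrays below both controls (22.9% of all genes), 1 fell (0.642% of all genes) and none rose, with a median of -0.48, the lowest of the lists with at least 7 genes. The summed signal of 6 lineage markers was 22479 and 24553 in BMP2 cultures, against 30123 and 31763 in control cultures. The part of cell numbers in this was not tested.

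Pdgfra had 1168 and 1563 in BMP2 cultures, against 2627 and 2764 in control cultures, a change of -0.98 (SE 0.23, adjusted p = 0.045, paired fit 0.024). Its call was lost when any 1 array was left out (0.079 to 0.66), with the deposited values (0.051) and in a fit of the 6 h arrays alone (0.091). Olig2, a bHLH factor that specifies the lineage, had 2585 and 2452 in BMP2 cultures, against 4065 and 3729 in control cultures, a change of -0.62 (SE 0.15, adjusted p = 0.056, paired fit 0.0024). Olig1 had 6281 and 6645 in BMP2 cultures, against 7721 and 8065 in control cultures, with a change of -0.29 (adjusted p = 0.4, paired fit 0.0041), and Sox10 had 2225 and 2253 in BMP2 cultures, against 2854 and 2908 in control cultures, with a change of -0.36 (adjusted p = 1, paired fit 0.069). The BMP2 arrays were the lower ones in all 4 genes.

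None of 20 tested premyelinating and myelin genes was called by the 18-array fit, beside 1.79% of all genes, and the median was -0.11. The paired fit called 7 lower and 0 higher, beside 8.6% and 7.64% of all genes. Gpr17, a receptor of precursors about to differentiate, had 1287 and 1464 in BMP2 cultures, against 4258 and 4120.4 in control cultures, a change of -1.59 (SE 0.70, adjusted p = 0.68, paired fit 0.0027). Lims2 had 408 and 358 in BMP2 cultures, against 1097 and 1095 in control cultures, a change of -1.44 (SE 0.40, adjusted p = 0.11, paired fit 0.0013). In both genes the groups of 6 h were far apart.

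No astrocyte gene was called by the 18-array fit at 6 h, beside 1.79% of all genes. Of 22 tested astrocyte genes 12 had both BMP2 arrays below both controls and 2 above, beside 22.9% and 21.9% of all genes, and the median was -0.17. The paired fit called 10 lower and 2 higher, beside 8.6% and 7.64% of all genes. Gfap, the intermediate filament that defines mature astrocytes, differed more between replicates than between groups, with 482 and 1100.3 in BMP2 cultures, against 280.1 and 901 in control cultures, a change of 0.50 (SE 1.16, adjusted p = 1, paired fit 0.022). BMP2 was higher within both replicate numbers, and the paired fit also called its other 2 probe sets (0.021 and 0.0064). Vim, with the smallest adjusted p of the list, had 4157 and 4769 in BMP2 cultures, against 5112 and 5438 in control cultures, a change of -0.24 (SE 0.10, adjusted p = 0.54, paired fit 0.0062). Stat3, which drives astrocyte genes downstream of cytokines, had 856 and 683 in BMP2 cultures, against 711 and 653 in control cultures, a change of 0.16 (SE 0.18, adjusted p = 1, paired fit 0.24). A second probe set of Stat3 had 934 and 891 in BMP2 cultures, against 598 and 697 in control cultures, a change of 0.48 (adjusted p = 1, paired fit 0.0066). By the 18-array fit none of 13 JAK-STAT genes was called (smallest adjusted p 0.58 for Jak2), and the paired fit called 4 higher and 2 lower.

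Of 21 neuronal genes Cadps rose and Ncald fell (1.15% and 0.642% of all genes), with a list range of -1.93 to 1.46. The paired fit called 7 lower and 2 higher (8.6% and 7.64% of all genes). None of 10 proneural genes was called by the 18-array fit, beside 1.79% of all genes, and the paired fit called 1 lower. Myt1, a zinc finger factor of nascent neurons, had 239 and 172 in BMP2 cultures, against 557 and 410.4 in control cultures, a change of -1.12 (SE 0.28, adjusted p = 0.057, paired fit 0.00023). By the 18-array fit none of 14 ganglionic eminence transcription factors was called (Ebf1 0.17), none of 17 stem and radial glia genes (Nr2e1 0.092) and none of 27 cell cycle and replication genes (Ccnd1 0.37). The paired fit called 3 higher and 3 lower in the first list, 2 and 5 in the second, and 0 and 3 in the third. The summed signal of 5 neuron markers was 5791 and 4932 in BMP2 cultures and 7640 and 6244 in control cultures, and the part of cell numbers in these levels was not tested.

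Early growth response genes did not share a direction. Of 13 tested immediate early genes only Klf4 was called, beside 1.79% of all genes. The paired fit called 4 higher and 2 lower, beside 7.64% and 8.6% of all genes. Fosl2, an AP-1 subunit, had 194 and 199 in BMP2 cultures, against 25.5 and 26.9 in control cultures, a change of 1.97 (SE 0.50, adjusted p = 0.071, paired fit 0.0001). Btg2, an antiproliferative gene, had 215 and 326 in BMP2 cultures, against 909.6 and 1112 in control cultures, a change of -1.80 (SE 0.55, adjusted p = 0.19, paired fit 0.00019), and its second probe set was called (-1.86, adjusted p = 0.017). Myc had 221 and 222 in BMP2 cultures, against 536 and 537 in control cultures, a change of -1.17 (SE 0.33, adjusted p = 0.13, paired fit 0.0017).

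Genes with more than 1 tested probe set allowed a check within the arrays. The genes that rose had 82 further tested probe sets, of which 80 changed in the same direction and 50 were called. The genes that fell had 48, of which all 48 changed in the same direction and 18 were called. The 2 opposite signs belonged to Ninj1 and Cux2, and no further probe set was called in the opposite direction.

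Most early changes were also present on the separate arrays of 24 h. Of the 122 genes that rose at 6 h, 116 were called higher in BMP2 at 24 h, where 9.97% of all genes tested were, and of the 68 that fell 57 were called lower, where 7.75% were. None was called in the opposite direction. The 24 h test shares its estimate of the spread with the 6 h test that chose these genes, and so is not independent of it. Only 180 of the 190 genes were tested when a mean of 100 in BMP2 or control cultures of 6 h was required. The others passed the filter through another group. The BMP2 arrays of 24 h had Xist signals of 1225 and 703, controls 5 and 6 of that time 2086 and 1548, and the other 4 controls 21.8 to 53.5. All these controls entered the estimate of the spread as 1 group. At 6 h the signals were 73.4 and 51.2 in BMP2 cultures and 75.5 and 44.8 in control cultures. A difference between the times therefore cannot be told apart from this difference in Xist, whichever 24 h controls are used. Against controls 5 and 6 alone, a setting chosen after the data were seen, the counts were 115 and 59 beside 5.82% and 4.59% of all genes. The 17 genes not called again included Hdac7 (-0.67 at 24 h, adjusted p = 0.11), Timp3 (0.29, 0.3) and Unc5c (0.58, 0.086).

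The size of the effect differed between the times in 16 of the 190 genes, a test of the difference itself that called 0.784% of all genes. Against controls 5 and 6 alone it differed in 8 of the genes that rose and 1 of those that fell. Against all 6 controls it was larger at 24 h in 15 of them and smaller in Nog. Klf4, Cidea, Gbx2 and Tcerg1l, which are among the 15, had means below 100 in both 6 h groups. They were tested because another group, such as BMP2 at 24 h, reached that mean, so the test is not independent of the filter for them. Nog had 669.8 and 722 in BMP2 cultures of 24 h, and 3142 and 2888 in those of 6 h. Serpinf1, a secreted serpin with neurotrophic activity, had 182 and 187 in BMP2 cultures, against 24.5 and 37.7 in control cultures at 6 h, a change of 1.79 (SE 0.25, adjusted p = 0.00096), and 2217 and 1326 in BMP2 cultures of 24 h. Hopx, a small homeodomain protein, had 640.0 and 535 in BMP2 cultures, against 146 and 148 in control cultures at 6 h, a change of 1.79 (SE 0.31, adjusted p = 0.0055) that was lost without BMP2 replicate 1 or either control (0.098 at most), and 3971 and 4634 in BMP2 cultures of 24 h.

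**Figure D5:**
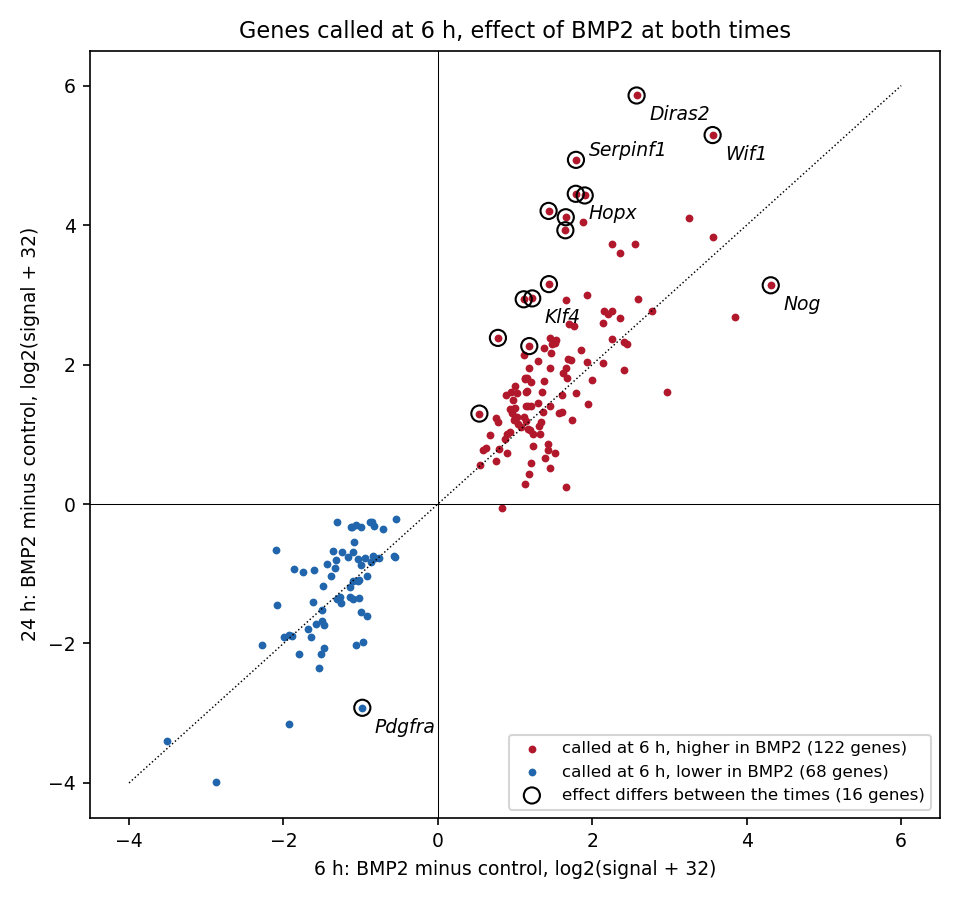
Log2 change between BMP2 and control cultures at 6 h (horizontal axis) and at 24 h (vertical axis), on the log2(signal + 32) scale, for the 190 genes called at 6 h. Each point is a gene, red where it rose and blue where it fell at 6 h, circled for the 16 genes whose effect differed between the times, and the dotted line marks equal changes. Circled genes lie above the line where they rose, except Nog, and Pdgfra lies below it.

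The BMP2 cultures also differed from the TSA cultures of 6 h in most of the genes that rose. In the direct contrast, which uses no control arrays but the same BMP2 arrays that chose the genes, TSA was lower than BMP2 in 97 of the 122 and higher in none, beside 12.5% lower among all genes tested. Of the 68 genes that fell, TSA was higher than BMP2 in 31 and lower in 3, and 28.1% of all genes tested were called in either direction. Against control, TSA was called lower in 33 of these 68 and higher in 4. It was called higher in 25 of the 122 and lower in 16. Among all 10588 genes tested, TSA was called higher in 1540 and lower in 1253. The contrast against control shares the control arrays that chose the genes. Nog had 48.7 and 46.9 in TSA cultures, below both controls. Bambi had 128 and 131 in TSA cultures and 198 and 154 in BMP2 cultures (adjusted p of the difference 0.49), and Bmp4 had 349.9 and 228 in TSA cultures and 133 and 81.0 in BMP2 cultures (0.1).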

How the data were processed

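The deposited intensity values are linear signals, 1 per probe set of Affymetrix Mouse Genome 430 2.0 arrays. The submitters' processing notes name MAS5 (version not given), and the methods of the authors name dChip with rank-based quantile normalization. No detection calls were used. In R 4.3.3 the signals of the 18 arrays were quantile-normalized, 32 was added and the log2 was taken. Of 45101 probe sets, 64 controls were left out. Probe sets whose highest group mean reached 100 were fitted with limma 3.58.1 (6 groups, eBayes with trend, Benjamini-Hochberg over all tested, threshold 0.05). The array annotation gave 34945 probe sets 1 gene, 932 several and 9160 none, and only those with 1 gene were named. A gene is its brightest tested probe set.

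Genes named are the 15 largest rises and falls among called genes with an accepted symbol, called members of the gene lists, the member with the smallest adjusted p where a list had none, and defining and RT-PCR genes. Members, lists and tests were chosen with earlier results of these data known. Lists were not tested as sets. Alternatives were other scalings, added constants, filters, sets of arrays, variance models, call rules, the replicate number as a block, and each array left out. Arrays with equal numbers deviated together (correlations of deviations 0.713 for BMP2 with control, 0.567 for TSA with control and 0.633 for TSA with BMP2), which with 2 arrays in a group gives the opposite sign for unequal numbers. The steps were tested on simulated data. The number of arrays limits the precision. The motif search used the RefSeq promoter table. RT-PCR and protein data were not used here.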

Additional observations from a re-analysis of the deposited data

Results flagged for a closer look

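For 7 named genes the effect of BMP2 at 24 h differed from that at 6 h by the limma test of the difference itself. It was larger at 24 h by 3.28 log2 units for Diras2 (SE 0.49, adjusted p = 0.0037), by 3.15 for Serpinf1 (SE 0.32, 0.00016), by 2.66 for Hopx (SE 0.41, 0.0041), by 1.73 for Wif1 (SE 0.33, 0.023) and by 1.73 for Klf4 (SE 0.35, 0.033). For Pdgfra the fall deepened, with a difference of -1.94 (SE 0.30, 0.0041), and for Nog the rise was smaller, with a difference of -1.17 (SE 0.24, 0.031).

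Against controls 5 and 6 of 24 h alone, the differences of Serpinf1, Hopx and Pdgfra stayed called (3.23, 2.23 and -1.90, with adjusted p of 0.0014, 0.032 and 0.046). Those of Diras2, Wif1, Klf4 and Nog kept their direction and were not called (3.21, 1.67, 1.62 and -1.11, with adjusted p of 0.051, 0.14, 0.14 and 0.12). The BMP2 group of 24 h holds 2 arrays. Klf4 had means below 100 in both 6 h groups and passed the filter through another group. Why the effects differ was not tested.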

How the results depend on the processing

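All 190 genes kept their direction under each of the 18 alternatives that tested them (170 to 190 were tested). This was fixed in advance for many alternatives, because all 190 had both BMP2 arrays beyond both controls. Leaving out 1 array, adding another constant or changing the variance model could not turn a sign. The counts moved with the estimate of the spread: 501 probe sets and 315 genes with the 4 arrays alone, 829 and 511 with the 6 arrays of 6 h, and 93 to 142 and 57 to 95 with 1 array left out, lowest without BMP2 replicate 1. With the replicate number as a block they were 630 and 403 over 18 arrays, 2922 and 1720 within 6 h, and 3105 and 1837 within the 4 arrays, and the share of higher calls among probe sets was 48.7% within 6 h against 66.4% in the 18-array fit without it. Under the call rule of the methods' criteria (ratio over 2, difference over 100, here with an unadjusted limma p under 0.1) 402 probe sets passed.

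The test of the difference between the times called 122 probe sets, 68 with controls 5 and 6 only, 75 with a mean of at least 200, 48 to 67 with 1 array left out and 3738 with the replicate block. The direct contrast of TSA with BMP2 called 4724, 9305 within 6 h, 12433 with the replicate block and 2305 to 2735 with 1 array left out. The count of 3738 for the difference between the times comes from grouping arrays by number. This sets the BMP2 arrays of 24 h (Xist 1225 and 703) beside controls 1 and 2 of 24 h (21.8 and 24.2). Numbers 5 and 6 occur only among the controls of 24 h. What a number shares is not known, so no conclusion is drawn from this count. Outside the left-out arrays, 12 of the 51 named called genes lost the call in at least 1 other setting (Acvr1, Bmpr1a, Diras2, Efna5, Fzd7, Hdac7, Klf4, Msx2, Nfe2l3, Nrarp, Pdgfra and Unc5c), with adjusted p of 0.0501 to 0.14.

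Signs of 5 genes that were not called turned with 1 array left out, all at an adjusted p of 1. Bmpr1b ranged between -0.0020 (without control replicate 2) and 0.38, Smad5 between -0.0043 (without control replicate 2) and 0.17, and Wnt5a between -0.41 and 0.17 (without control replicate 2), with 0.08 without BMP2 replicate 1. Gfap ranged between -0.29 (without control replicate 1) and 1.29, with -0.07 without BMP2 replicate 2, and Hes1 between -0.28 and 0.13 (without BMP2 replicate 2), with 0.10 without control replicate 1. The causes were not tested.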

Other observations

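The following called genes lie outside the lists and were picked after their values were seen. The potassium channel genes that rose included Kcnq3, with 215 and 195 in BMP2 cultures, against 41.4 and 51.0 in control cultures and a change of 1.60 (SE 0.22, adjusted p = 0.00096), Kcnc4, with 256 and 189 in BMP2 cultures, against 48.1 and 47.0 in control cultures and a change of 1.67 (SE 0.26, adjusted p = 0.0018), and Kcnk13, with 251 and 261 in BMP2 cultures, against 70.4 and 66.4 in control cultures and a change of 1.52 (SE 0.19, adjusted p = 0.0004). Grin3a, an NMDA receptor subunit, had 2531 and 2180.5 in BMP2 cultures, against 804 and 490.0 in control cultures, a change of 1.85 (SE 0.36, adjusted p = 0.011), and Cnr1, the cannabinoid receptor, had 269 and 247 in BMP2 cultures, against 53.2 and 71.6 in control cultures, a change of 1.62 (SE 0.26, adjusted p = 0.0027). Asic2 rose by 1.00 (adjusted p = 0.035) on dim signals of 83.0 and 79.3 in BMP2 cultures, against 20.5 and 28.9 in control cultures, whereas its relative Asic1 fell.

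The RNA-binding proteins Zfp36l1 and Zfp36l2, which promote decay of AU-rich mRNAs, both fell. Zfp36l1 had 963 and 1264 in BMP2 cultures, against 1894 and 2218 in control cultures, a change of -0.87 (SE 0.15, adjusted p = 0.0052), and Zfp36l2 had 863 and 884 in BMP2 cultures, against 1734 and 2198 in control cultures, a change of -1.13 (SE 0.19, adjusted p = 0.0031). Of the regulators of G protein signalling, Rgs2 had 2215 and 2595 in BMP2 cultures, against 435 and 622 in control cultures, a rise of 2.14 (SE 0.41, adjusted p = 0.011), and Rgs16 had 124 and 134 in BMP2 cultures, against 292 and 296 in control cultures, a change of -1.02 (SE 0.23, adjusted p = 0.036).

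Zfp423, a zinc finger protein known as a cofactor of Smads, had 2819 and 2617 in BMP2 cultures, against 1050.4 and 809.7 in control cultures, a change of 1.53 (SE 0.32, adjusted p = 0.02). Cxxc5, a CXXC zinc finger protein known to respond to BMP4 in neural stem cells, had 4361 and 4300.2 in BMP2 cultures, against 1476 and 1230.1 in control cultures, a change of 1.66 (SE 0.23, adjusted p = 0.00082). Pcsk6, a proprotein convertase that processes TGF-beta family ligands, had 259.7 and 222 in BMP2 cultures, against 52.8 and 46.6 in control cultures, a change of 1.74 (SE 0.17, adjusted p = 5e-05). In all of these genes the BMP2 arrays lay beyond both controls.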
